A study of Mus musculus with 6 samples.

Results

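The mitochondrial ribosomal protein genes are the nuclear genes named Mrpl (large subunit) or Mrps (small subunit) followed by a number and at most 1 letter. The genes with such a name that the deposited annotation types as protein-coding were taken, which gave 77 of the 78298 genes in the table, 48 Mrpl and 29 Mrps. Mrpl33 carries a matching name but is typed as a nonsense-mediated decay gene and was left out by the rule. The choice used names only, and no measured value. The experiment asked what the water channel gene Aqp1 does to the transcriptome when it is overexpressed in RENCA cells, an established mouse renal adenocarcinoma line. Gene expression was measured by RNA-seq in 3 samples with a lentivirus that carries Aqp1 (oe-AQP1) and in 3 samples with its negative control vector (oe-NC). In the study's description the control vector was empty. Both groups carry a lentiviral vector and went through the same puromycin selection at 2 μg/mL for 14 days, begun 48 hours after transduction, so that the selection is shared and is not part of the comparison. The sample labels name no batch that separates the 6 samples. Neither the labels nor the study's methods say whether the samples of a group came from separate transductions, clones or cultures, and the p-values measure only the spread between these samples, which may be technical.

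Mitochondria carry their own ribosome, which is made of a large subunit built on the 16S rRNA (mt-Rnr2) and a small subunit built on the 12S rRNA (mt-Rnr1). Both rRNAs are transcribed from the mitochondrial genome, while every protein of the ribosome is encoded in the nucleus, made in the cytosol and imported. Some of these proteins descend from bacterial ribosomal proteins, and others are found only in mitochondria. The mitoribosome makes a small set of hydrophobic proteins of the respiratory chain and ATP synthase, so its supply matters in tissues with a high oxidative load, such as the renal proximal tubule. Current structural names put u (universal), b (bacterial) or m (mitochondria-specific) before the L or S of the subunit.

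The samples held 18385714.02 to 21920898.67 expected counts each. Aqp1 was counted 7713, 8545 and 7838 times in oe-AQP1 samples 1 to 3, against 41, 25 and 45 times in oe-NC samples 1 to 3, a log2 fold change of 7.70 that matches the labels. One library stood apart. Over all kept genes, the chi-square per gene between oe-NC samples 1 and 2 was 9.47 and between oe-NC samples 1 and 3 it was 11.1, whereas every other pair within a group lay between 1.71 and 2.04. The counts of called genes over each list are therefore also given without oe-NC sample 1. Of 11 renal epithelial markers, 10 were abundant enough to be tested and 6 were lower in oe-AQP1, with a summed level of 852 to 884 CPM (counts scaled to the library size) in oe-AQP1 and 1042 to 1154 CPM in oe-NC. Lrp2, the endocytic receptor megalin of the proximal tubule, had a log2 fold change of -0.93, and Krt19, a keratin of simple epithelia with 10 to 26 counts per sample, one of -0.97. Krt19 lost its call with DESeq2 (-1.04), without a low-count filter (-0.98), without any 1 of the oe-AQP1 samples (-0.86 to -1.04) and without oe-NC sample 1 (-0.80) or 2 (-0.88). Pax2, a transcription factor of the kidney lineage, went the other way at 0.25 (adjusted p by limma-voom 0.124), and without oe-NC sample 1 it was called higher (0.41, adjusted p 3.99e-06), beside 6 markers called lower. Of 8 macrophage markers, 4 were tested and 2 were lower (Csf1r, the CSF1 receptor, at -1.51, and Lyz2, lysozyme, at -0.52). Cd68 went the other way at 0.15 (adjusted p by limma-voom 0.0764), and Cd14 at -0.16 was not called (adjusted p 0.147). The 8 markers summed to 59.0 to 62.2 CPM in oe-AQP1 against 69.3 to 71.3 CPM in oe-NC, and 2 of the 8 were at 0 in all samples. Of 7 fibroblast markers, 2 were tested and Col1a1, type I collagen, was lower at -0.73, with a sum of 12.6 to 13.8 CPM against 18.2 to 26.6 CPM. Without oe-NC sample 1 the macrophage and fibroblast counts were again 2 and 1 lower. Over all kept genes 16.6% were called lower, and 20.7% without that sample. Endothelial markers summed to at most 1.73 CPM and lymphocyte markers to at most 0.328 CPM in any sample. Whether these marker differences bear on the ribosomal protein genes was not tested.

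All 77 mitochondrial ribosomal protein genes passed the low-count filter. After Aqp1 overexpression 13 of them rose and 4 fell, while 60 did not pass the test (limma-voom, Benjamini-Hochberg adjusted p under 0.05 over all 15522 kept genes). Mrpl30 and Mrpl22 rose the most, by 42.6% and 37.0%, and Mrpl42 and Mrpl18 fell the most, with changes of -20.7% and -20.0%. Of all kept genes, 16% were called higher and 16.6% lower. The share of the 77 called higher, 16.9%, was close to that background, and the share called lower, 5.19%, was below it. No mitochondrial ribosomal protein gene changed by more than 1 on the log2 scale, a change that with the same adjusted p 4.39% of kept genes passed upward and 0.844% downward. The median log2 fold change of the 77 was 0.05, against 0.00 over all kept genes, and 48 of the 77 had a positive and 29 a negative value. In CPM, 21 of the 77 did not overlap between groups with oe-AQP1 higher, and 5 did so with oe-AQP1 lower; of all kept genes 23.5% and 23.8% did so. In bulk RNA a change in the make-up of the cells and a change in the RNA of each cell cannot be told apart.

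**Figure D1:**
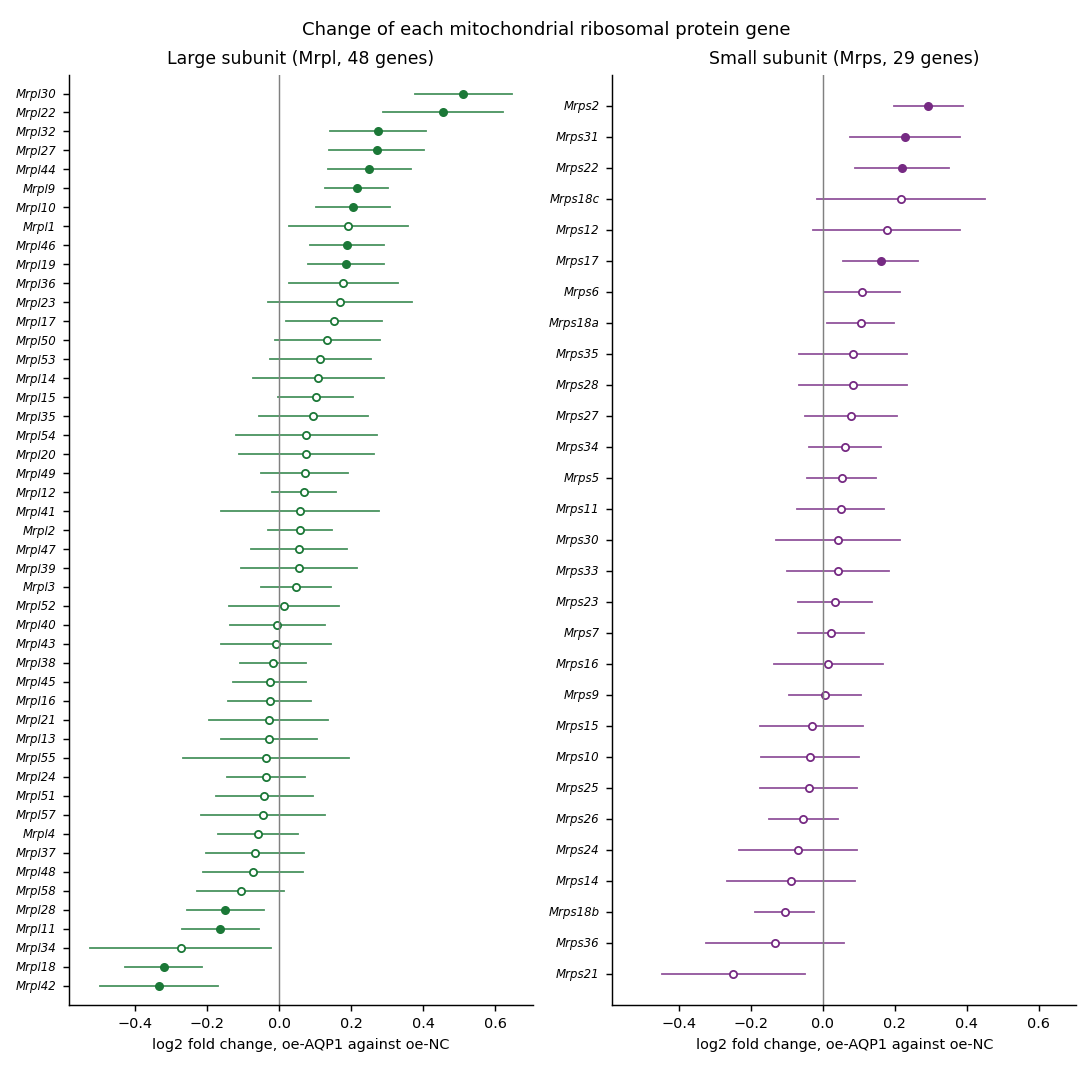
The log2 fold change (oe-AQP1 against oe-NC, horizontal axis) is drawn for each of the 48 large subunit genes (left) and 29 small subunit genes (right), with its 95% interval as a line and a filled point where adjusted p was under 0.05. All points lie between -0.33 and 0.51, and 74 of the 77 intervals lie within 0.5 of 0.

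The background moved with the setting. With sample quality weights 14 of the 77 were higher and 9 lower, beside 20.1% and 21.4% of kept genes. Without a low-count filter 9 were higher and 3 lower, beside 6.23% and 7.21%. Among protein-coding genes only, 17 were higher and 3 lower, beside 19.6% and 18.9%.

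These small changes were measured with a narrow error. The median standard error of the log2 fold change was 0.0597 over the 77 genes, against 0.0782 over all kept genes, and all 77 95% intervals lay within 1 of 0 on the log2 scale. For the 60 genes that did not pass the test, the intervals reached no lower than -0.53 and no higher than 0.45. A 3 against 3 comparison of a single gene cannot give an exact two-sided permutation p under 0.1, the value that each of the 17 called genes reached, so the calls rest on the model fitted across all genes.

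Among the large subunit genes, Mrpl30 rose the most. It encodes uL30m, a protein with a bacterial counterpart, at chr1:37929558-37939816 on the plus strand (GRCm39, as are all gene positions here). Its level was 138, 132 and 136 CPM in oe-AQP1 samples 1 to 3 and 85.4, 101 and 99.2 CPM in oe-NC samples 1 to 3. The groups were far apart relative to their spread, with a log2 fold change of 0.51 ± 0.06 (SE, n = 3 per group) and an adjusted p by limma-voom of 0.000128. Mrpl22, at chr11:58062475-58070412 on the plus strand, encodes uL22m, whose bacterial counterpart lines the exit tunnel for the nascent protein. It had 21.9, 23.2 and 22.1 CPM in oe-AQP1 against 15.2, 17.95 and 16.1 CPM in oe-NC. Its log2 fold change was 0.45 ± 0.08 (adjusted p by limma-voom 0.00118). The lowest oe-AQP1 value of Mrpl22 lay above the highest oe-NC value, as it did for every gene called higher.

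Mrpl32, Mrpl27 and Mrpl44 came next among the large subunit genes. Mrpl32, on chromosome 13, encodes bL32m, which an inner membrane protease trims before it joins the ribosome. It was at 45.8, 42.9 and 42.8 CPM in oe-AQP1 and at 33.8, 37.6 and 37.3 CPM in oe-NC (log2 fold change 0.27 ± 0.06, adjusted p by limma-voom 0.00577). Mrpl27, on chromosome 11, encodes bL27m, which in bacteria reaches the peptidyl transferase centre. It was at 70.4, 69.3 and 68.3 CPM against 53.7, 62.9 and 56.4 CPM (0.27 ± 0.06, adjusted p 0.0058). Mrpl44, on chromosome 1, encodes mL44, a protein with a ribonuclease III-like fold. It was at 48.0, 45.2 and 47.7 CPM against 40.7, 39.6 and 38.1 CPM (0.25 ± 0.05, adjusted p 0.00449). The other 4 large subunit genes that rose were Mrpl9, Mrpl10, Mrpl46 and Mrpl19, with log2 fold changes of 0.22, 0.21, 0.19 and 0.18. Mrpl46 lost its call without oe-AQP1 sample 2 (0.16), and Mrpl19 without oe-AQP1 sample 1 (0.17) or 2 (0.18). Over the 17 alternative fits listed below, Mrpl46 kept its call in 16 and Mrpl19 in 13.

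Among the small subunit genes, Mrps2 rose the most. It encodes uS2m, a protein with a bacterial counterpart, at chr2:28358049-28364580 on the plus strand. It was at 91.8, 91.9 and 91.6 CPM in oe-AQP1 and at 72.8, 74.0 and 77.7 CPM in oe-NC. Its log2 fold change was 0.29 ± 0.04 (adjusted p by limma-voom 0.000504). Mrps31 and Mrps22 encode mS31 and mS22, which have no bacterial counterpart. Mrps31 was at 34.7, 38.5 and 36.5 CPM against 28.7, 31.6 and 33.3 CPM (0.23 ± 0.07, adjusted p 0.0277). Mrps22 was at 40.9, 41.7 and 40.8 CPM against 32.8, 35.8 and 37.4 CPM (0.22 ± 0.06, adjusted p 0.0166). Mrps17, for uS17m, was the remaining small subunit gene that rose, at 0.16. Mrps22 lost its call without oe-AQP1 sample 1 (0.22), 2 (0.21) or 3 (0.23), Mrps31 without oe-AQP1 sample 2 (0.19) or 3 (0.23) or oe-NC sample 2 (0.24), and Mrps17 without oe-AQP1 sample 1 (0.16) or 2 (0.14) or oe-NC sample 2 (0.17). Over the 17 alternative fits listed below, Mrps22 and Mrps31 each kept the call in 13 and Mrps17 in 12. No small subunit gene fell in the main fit. The lowest log2 fold change among them, -0.25 for Mrps21, which encodes bS21m, had an adjusted p of 0.0579.

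The 4 genes that fell all belong to the large subunit. Mrpl42, at chr10:95316559-95346150 on the minus strand, encodes mL42, a mitochondria-specific protein. It was at 65.7, 61.6 and 69.1 CPM in oe-AQP1 and at 73.5, 87.2 and 87.3 CPM in oe-NC (-0.33 ± 0.07, adjusted p by limma-voom 0.00602). Its oe-NC sample 1 lay nearest to the oe-AQP1 samples, and without that sample the log2 fold change was -0.42. Mrpl18, at chr17:13130034-13135718 on the minus strand, encodes uL18m, whose bacterial counterpart binds the 5S rRNA. It was at 64.7, 66.3 and 70.3 CPM against 82.3, 82.5 and 86.4 CPM (-0.32 ± 0.05, adjusted p 0.000587). Mrpl11, for uL11m of the stalk base, was at 40.7, 38.8 and 39.7 CPM against 44.6, 45.0 and 43.8 CPM (-0.16 ± 0.05, adjusted p 0.0253). Mrpl28, for bL28m, was at 67.2, 64.9 and 61.9 CPM against 69.9, 71.1 and 73.9 CPM (-0.15 ± 0.05, adjusted p 0.0379). The groups did not overlap in any of the 4. Over the 17 alternative fits listed below, Mrpl11 kept its call in 10 and Mrpl28 in 7. Mrpl11 lost its call without oe-AQP1 sample 1 (-0.18), 2 (-0.15) or 3 (-0.16) or without oe-NC sample 2 (-0.16), and Mrpl28 without any sample other than oe-NC sample 1, with values of -0.12 to -0.18.

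**Figure D2:**
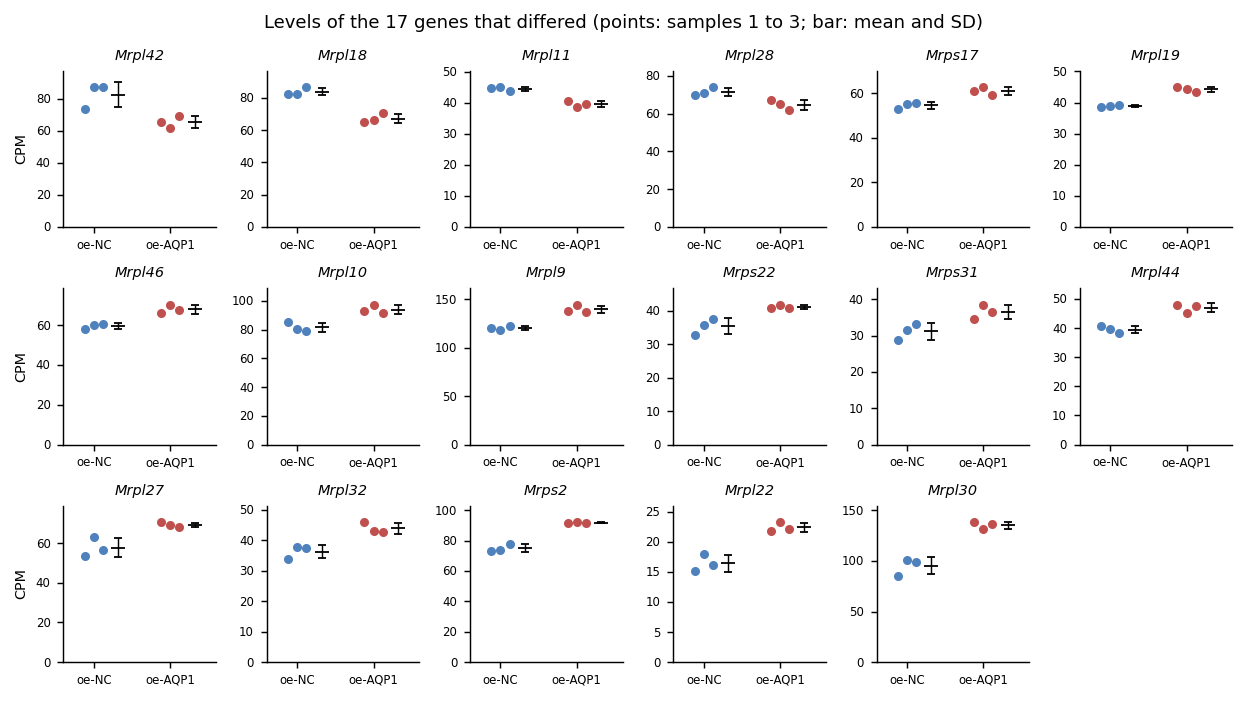
Each panel shows the level in CPM (vertical axis, from 0) of 1 of the 17 called genes in oe-NC samples 1 to 3 (blue) and oe-AQP1 samples 1 to 3 (red), from the largest decrease to the largest increase, with the mean and SD as a bar. The groups do not overlap in any panel, and Mrpl30, at 135 CPM on average in oe-AQP1 and 95.1 CPM in oe-NC, shows the largest relative increase.

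The number of genes called lower depended on oe-NC sample 1. In that sample 59 of the 77 genes were at their lowest among the 3 control samples, 37 of the large and 22 of the small subunit, and 39.8% of all kept genes were. The median over the 77 of the difference from the mean of the other 2 control samples was -0.14 on the log2 scale, whereas the same median over all kept genes was 0.00. Over 2091 kept protein-coding genes with a short transcript it was -0.05. Without oe-NC sample 1, 15 of the 77 were higher and 12 lower, beside 19.4% and 20.7% of 16085 kept genes. The 13 genes that rose and the 4 that fell kept their calls. The genes called lower in addition were Mrpl34 (log2 fold change -0.38), Mrps21 (-0.33), Mrps36 (-0.20), Mrps14 (-0.19), Mrpl58 (-0.16), Mrps24 (-0.15), Mrps18b (-0.12) and Mrpl13 (-0.10). Mrpl58 among them encodes mL62, a peptidyl-tRNA hydrolase that became part of the ribosome. The genes called higher in addition were Mrps18a (0.10) and Mrpl12 (0.09), which encodes bL12m of the stalk.

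**Figure D3:**
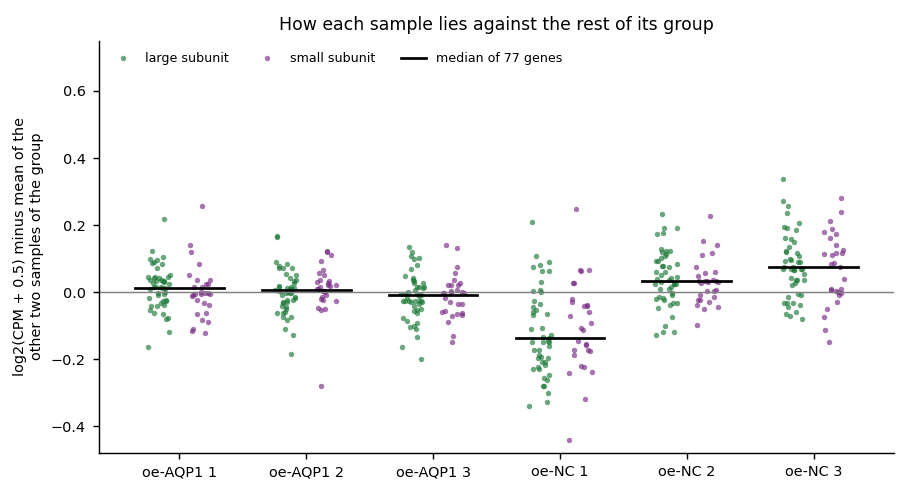
For each sample (horizontal axis), each point is 1 mitochondrial ribosomal protein gene, with its log2(CPM + 0.5) minus the mean of the other 2 samples of the group on the vertical axis, green for the large and purple for the small subunit; black bars are medians of the 77 genes. The median of oe-NC sample 1 is -0.14, and those of the other 5 samples lie between -0.01 and 0.07.

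The subunits gave similar medians. The 48 Mrpl genes had a median log2 fold change of 0.06, with 9 higher and 4 lower, and the 29 Mrps genes one of 0.04, with 4 higher and 0 lower. The count of 0 is from the main limma-voom fit. With another scaling (RLE), without a low-count filter, with edgeR's quasi-likelihood test and with DESeq2, 1 Mrps gene was lower. In these fits 16.7%, 7.21%, 16.7% and 14% of all genes tested were lower. Sample quality weights called 3 Mrps genes lower, beside 21.4% of kept genes. At an unadjusted p under 0.05 the main fit had 2 Mrps genes lower and 6 higher. In either direction, 6644 of all 15522 kept genes passed that threshold. Without oe-NC sample 1 the medians were 0.01 and 0.03, with 10 higher and 7 lower Mrpl genes and 5 higher and 5 lower Mrps genes. The background over all kept genes was 16% higher and 16.6% lower, and 19.4% and 20.7% without oe-NC sample 1. Whether the subunits differ was not tested.

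Names and structure do not match for every gene. Mrps30 and Mrps18a encode mL65 and mL66, which sit in the large subunit, and Mrps36 encodes a protein now assigned to the α-ketoglutarate dehydrogenase complex. Mrps30 was at 33.4, 30.8 and 30.7 CPM in oe-AQP1 and 34.4, 29.3 and 28.6 CPM in oe-NC, with overlapping groups and a log2 fold change of 0.04 (adjusted p by limma-voom 0.705). Mrps36 was at 20.7, 18.9 and 18.6 CPM against 19.4, 20.7 and 23.7 CPM, also with overlap (-0.13, adjusted p 0.274). Sorted by structure, the large subunit had 50 genes with 9 higher and 4 lower, and the small subunit 26 genes with 4 higher and 0 lower. Of the 45 members with a bacterial counterpart, 9 were higher and 3 lower, and of the 31 mitochondria-specific ones 4 were higher and 1 lower. Without oe-NC sample 1 these counts were 11 higher and 7 lower by structure in the large subunit and 4 higher and 4 lower in the small, 10 higher and 8 lower among the members with a bacterial counterpart, and 5 higher and 3 lower among the mitochondria-specific ones. Over all kept genes the shares were 16% higher and 16.6% lower, and 19.4% and 20.7% without that sample.

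Mrps18a, Mrps18b and Mrps18c are paralogs that end up in different places of the ribosome: mL66, mS40 and bS18m. None of them passed the test. Mrps18a was at 65.1, 64.8 and 65.9 CPM against 60.02, 61.5 and 60.4 CPM, without overlap (0.11, adjusted p by limma-voom 0.0783). Mrps18b was at 141, 143 and 139 CPM against 149, 154 and 152 CPM, without overlap and in the other direction (-0.11, adjusted p 0.0514). Mrps18c was at 35.1, 35.3 and 36.1 CPM against 24.8, 34.0 and 33.7 CPM (0.22, adjusted p 0.141). The low value of Mrps18c in oe-NC sample 1 set most of its difference, since without that sample the log2 fold change was 0.07. Mrps18a and Mrps18b, in contrast, changed to 0.10 and -0.12 without it, and both then passed the test, with adjusted p values of 0.0496 and 0.00195.

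Summed over genes, the 77 took 0.456% to 0.460% of an oe-AQP1 library and 0.418% to 0.453% of an oe-NC library. TPM is here the expected count divided by transcript length and scaled to the sum of such values in a sample. Unlike CPM, it has no TMM scaling between samples. As a level per length, in TPM over the Ensembl canonical transcripts, the 48 Mrpl genes together reached 3987, 3990 and 3974 in the oe-AQP1 samples. In the oe-NC samples they reached 3704, 3840 and 3866. The 29 Mrps genes summed to 2242, 2284 and 2252 TPM against 2163, 2202 and 2234 TPM. Both sums were lowest in oe-NC sample 1, and neither pair of groups overlapped. The ratio of the large to the small subunit sum was 1.78, 1.75 and 1.76 in oe-AQP1 and 1.71, 1.74 and 1.73 in oe-NC, a mean of 1.76 ± 0.02 (SD, n = 3) against 1.73 ± 0.02. The groups of the ratio did not overlap, but the highest oe-NC value, 1.744, lay next to the lowest oe-AQP1 value, 1.747. In CPM, which does not correct for length and is scaled by TMM, the large subunit sums did not overlap either, at 2863 to 2895 against 2639 to 2857. The small subunit sums in CPM did overlap, at 1673 to 1699 against 1577 to 1689. Whether length or scaling sets TPM and CPM apart here was not tested. The CPM ratio was 1.697 to 1.729 against 1.674 to 1.692, without overlap. The summed CPM of all 77 genes overlapped, with a range of 4536 to 4584 in oe-AQP1 against 4216 to 4546 in oe-NC.

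**Figure D4:**
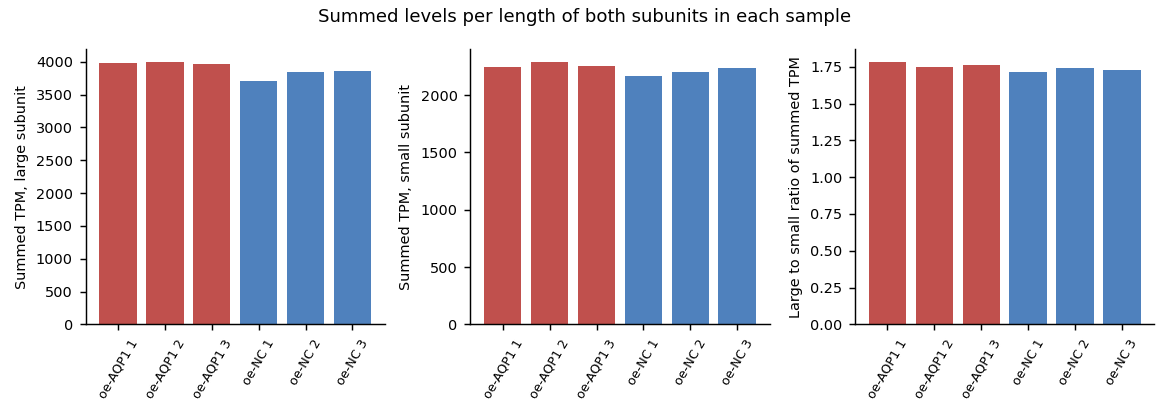
Bars give the summed TPM of the 48 large subunit genes (left), that of the 29 small subunit genes (middle) and their ratio (right) in oe-AQP1 samples 1 to 3 (red) and oe-NC samples 1 to 3 (blue), on axes from 0. The ratio stays between 1.71 and 1.78 in all 6 samples.

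The rRNAs of the 2 subunits are not among the 77 and were picked after their values had been seen. mt-Rnr1, the 12S rRNA of the small subunit, was at 1085, 1059 and 1140 CPM in oe-AQP1 and at 108, 135 and 140 CPM in oe-NC, a log2 fold change of 3.11 ± 0.08 (adjusted p by limma-voom 6.14e-10). mt-Rnr2, the 16S rRNA of the large subunit, was at 164, 171 and 176 CPM against 126, 147 and 153 CPM (0.27 ± 0.07, adjusted p 0.0108), and without oe-NC sample 1 its log2 fold change was 0.18. The value of mt-Rnr1 was larger than that of any of the 77 genes, and that of mt-Rnr2 lay within their range. Over the whole mitochondrial chromosome the share of counts went the other way, with 1.71% to 1.76% of an oe-AQP1 library against 2.37% to 2.99% of an oe-NC library. How rRNA was removed or RNA selected before sequencing is not given in the sources used here, and its part in the rRNA values was not tested.

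The 77 genes spanned a wide range of levels per length. In oe-NC the highest means were those of Mrpl13 (289 ± 18.4 TPM, SD, n = 3), which encodes uL13m, Mrps18b (270 ± 3.08), Mrpl42 (245 ± 18.5), Mrpl2 (234 ± 4.24), which encodes uL2m near the peptidyl transferase centre, and Mrpl20 (185 ± 21.2), which encodes bL20m. The lowest were Mrpl55 (7.87 ± 0.93 TPM), which encodes bL31m, Mrps35 (14.9 ± 0.60), Mrpl54 (15.5 ± 1.22), Mrps25 (15.5 ± 0.76) and Mrpl1 (17.2 ± 0.99), which encodes uL1m of the mobile L1 stalk. Samples of neighbours in this order overlapped between Mrpl13 and Mrps18b, between Mrpl42 and Mrpl2, among Mrps35, Mrpl54 and Mrps25, and between Mrpl1 and both Mrpl54 and Mrps25, so that these were not separated. The ranks depend on the length used: with the summed length of all exons, Mrpl13 moved to rank 45 and Mrpl42 to rank 42 of 77, while Mrps18b and Mrpl2 held the first 2 ranks. Of these 10 genes only Mrpl42 was called. Across the 77 genes the log2 fold change had a Pearson r of 0.15 with log2 transcript length and of -0.01 with log2 mean CPM. The genes share libraries and are not independent, and these are descriptions.

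The 77 genes lie on 17 chromosomes, with 11 on chromosome 11 and 8 on chromosome 17. Their canonical transcripts are short, with a median of 1820 nt (555 to 7366) against 3405.5 nt over kept protein-coding genes. They also often start next to another gene. A protein-coding neighbour on the opposite strand, with start sites at most 1000 bp apart and the genes pointing away from each other, was found for 27 of the 77 (35.1%), whereas 14.0% of the 11962 kept protein-coding genes had one. Of the 26 partners that passed the filter, 7 (26.9%) were higher and 4 (15.4%) lower in oe-AQP1, beside 16% and 16.6% of all kept genes. Mrpl46 and Mrps11 are each other's partner, so these members of the 77 also stand among the 26, with Mrpl46 among the 7 called higher. Without oe-NC sample 1 they were 9 and 6, beside 19.4% and 20.7%. Among the partners called in the fit of all samples, 3 lay beside a member that was also called and 8 beside one that was not, and in 3 of those 8 pairs the signs were opposite. The 8 include Mrpl46 beside Mrps11.

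The largest change in such a pair was that of Mrpl30 and Mitd1, whose start sites are 61 bp apart. Mitd1, which encodes a protein of cytokinesis, was at 100, 102 and 103 CPM in oe-AQP1 and at 39.3, 47.8 and 49.9 CPM in oe-NC, a log2 fold change of 1.16 ± 0.07 (adjusted p by limma-voom 1.31e-06), so that both genes of the pair were higher. Mrpl18 and Tcp1, which encodes a subunit of the cytosolic chaperonin, have start sites 502 bp apart, and both fell. Tcp1 was at 527, 518 and 524 CPM against 565, 633 and 631 CPM (-0.22 ± 0.05, adjusted p 0.00437). Mrpl27 and Eme1, an endonuclease subunit gene, have start sites 228 bp apart, and both rose (Eme1 0.26, adjusted p 0.0433). The neighbours Psma2 and Mrps11 did not pass the test, and Lrrc46, the neighbour of Mrpl10, had too few counts to be tested. Mrpl32 has its start site 54 bp from that of the proteasome gene Psma2, whose log2 fold change was 0.06 (adjusted p 0.413). Mrpl46 and Mrps11 are both mitochondrial ribosomal protein genes with start sites 30 bp apart, and their log2 fold changes were 0.19 (adjusted p 0.0106) and 0.05 (adjusted p 0.514). The called neighbours of genes that did not pass included Klc4 (-0.26, beside Mrpl2 at 0.06), Ska3 (0.28, beside Mrpl57 at -0.04), Mtbp (0.11, beside Mrpl13 at -0.03), Cyb5rl (-0.50, beside Mrpl37 at -0.07), Ncapd2 (-0.30, beside Mrpl51 at -0.04), Pnpla7 (0.30, beside Mrpl41 at 0.06) and Gga3 (0.17, beside Mrps7 at 0.02).

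Some counts may be shared between loci. Of the 77 genes, 61 overlap another annotated gene and 41 a protein-coding one, by whole gene spans with introns. The share of all genes with such an overlap was not computed. Whether the counting used strand is not given in the sources used here. Among the called genes, Mrpl44 overlaps Wdfy1 on the opposite strand over 126 bp (Wdfy1 log2 fold change 0.66), Mrpl18 overlaps Tcp1 over 1131 bp and Mrpl19 overlaps Gcfc2 over 2065 bp (Gcfc2 0.27). Also on the opposite strand, Mrps22 overlaps Copb2 over 1294 bp (Copb2 -0.02) and Mrpl46 overlaps Mrps11 over 413 bp. Mrpl27 overlaps Eme1 over 229 bp, so their shared rise has this limit too. Mrpl9 overlaps Oaz3 over 629 bp and Mrpl10 overlaps Lrrc46 over 283 bp, both neighbours with few counts. Without strand, reads cannot be told apart where exons of both genes overlap, and how much of each overlap is exonic was not computed. The deposited count was not exactly whole (any fraction at all, with no tolerance) in at least 1 sample for 36 of the 77, 7 of the 17 called genes among them, and reads of such genes may have been split with a similar copy. The pseudogene Mrpl23-ps1 had 980.06 to 1418.65 expected counts per sample and a log2 fold change of -0.09 (adjusted p by limma-voom 0.485), and the values of Mrpl23 (0.17, adjusted p 0.183) are uncertain for that reason.

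Promoter sequences are shown for 7 genes. Mrpl30 and Mrpl22 had the largest increases and Mrpl42 and Mrpl18 the largest decreases. Mrpl32, Mrpl10 and Mrpl9 were picked because, with Mrpl22, they are the called genes that hold an NRF1 word. The sequences shown therefore do not give the share of that word among the genes that rose. NRF1, nuclear respiratory factor 1, and the ETS factor GABP are known activators of nuclear genes for mitochondria. Each sequence holds the 250 bases before the RefSeq start site, read 5′ to 3′ on the gene's strand (build GRCm38.p6, so positions differ from those of GRCm39 above). Capitals mark the words GCGCATG (NRF1), CCGGAAG (ETS), AAGATGG (YY1) and CACGTG (E-box, a palindrome) on either strand; the NRF1 word overlaps itself where both strands match.
Mrpl30, chr1:37890227-37890476, plus strand: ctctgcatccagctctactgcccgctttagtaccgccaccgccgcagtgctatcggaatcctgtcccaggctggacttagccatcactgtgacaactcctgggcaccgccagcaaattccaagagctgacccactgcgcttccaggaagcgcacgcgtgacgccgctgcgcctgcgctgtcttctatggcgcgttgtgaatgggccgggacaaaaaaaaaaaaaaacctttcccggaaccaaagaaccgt
Mrpl22, chr11:58171414-58171663, plus strand: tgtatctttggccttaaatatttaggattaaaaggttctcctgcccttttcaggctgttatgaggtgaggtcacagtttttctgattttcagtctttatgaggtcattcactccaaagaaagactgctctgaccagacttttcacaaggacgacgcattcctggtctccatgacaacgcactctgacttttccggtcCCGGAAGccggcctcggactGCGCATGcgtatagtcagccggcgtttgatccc
Mrpl32, chr13:14613038-14613287, minus strand: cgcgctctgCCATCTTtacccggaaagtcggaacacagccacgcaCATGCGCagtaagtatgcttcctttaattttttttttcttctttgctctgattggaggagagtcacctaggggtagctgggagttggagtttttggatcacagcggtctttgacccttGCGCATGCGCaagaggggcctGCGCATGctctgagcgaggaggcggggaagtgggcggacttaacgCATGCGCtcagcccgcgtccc
Mrpl10, chr11:97041332-97041581, plus strand: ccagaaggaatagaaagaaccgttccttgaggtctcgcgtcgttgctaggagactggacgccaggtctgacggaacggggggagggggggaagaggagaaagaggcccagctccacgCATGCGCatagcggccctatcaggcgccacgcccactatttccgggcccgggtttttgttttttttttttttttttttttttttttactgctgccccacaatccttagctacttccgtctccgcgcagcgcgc
Mrpl9, chr3:94443086-94443335, plus strand: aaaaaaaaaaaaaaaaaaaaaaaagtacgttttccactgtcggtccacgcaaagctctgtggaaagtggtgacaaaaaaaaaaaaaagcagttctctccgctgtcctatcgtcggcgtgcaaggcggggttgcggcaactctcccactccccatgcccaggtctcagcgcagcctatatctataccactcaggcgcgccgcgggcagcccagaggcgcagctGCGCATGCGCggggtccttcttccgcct
Mrpl42, chr10:95501950-95502199, minus strand: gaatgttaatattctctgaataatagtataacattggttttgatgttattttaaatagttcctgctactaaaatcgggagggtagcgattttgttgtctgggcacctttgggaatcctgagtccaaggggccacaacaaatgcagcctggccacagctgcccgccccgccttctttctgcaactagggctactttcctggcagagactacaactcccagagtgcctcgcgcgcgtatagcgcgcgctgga
Mrpl18, chr17:12916092-12916341, minus strand: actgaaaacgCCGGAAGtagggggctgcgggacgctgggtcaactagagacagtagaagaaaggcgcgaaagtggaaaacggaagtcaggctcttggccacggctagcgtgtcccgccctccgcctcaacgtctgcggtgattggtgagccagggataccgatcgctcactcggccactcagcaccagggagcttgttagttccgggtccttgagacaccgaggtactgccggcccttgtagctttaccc

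Mrpl22 holds an ETS word whose first base is at -53 from the start site and an NRF1 word at -33. Mrpl32 holds 5 NRF1 matches, of which 2 overlap, and a YY1 word. Mrpl9 holds 2 overlapping NRF1 matches at -28 and -25, and Mrpl10 holds 1 at -133. Mrpl18 holds an ETS word at -240, and none of the 4 words occurs in these windows of Mrpl30 and Mrpl42, which says only that these letters are not there. Of the 77 genes, 68 were found in the promoter table. The ETS word occurred in 16 of the 68 (23.5%) and in 9.15% of 17492 protein-coding promoters, the NRF1 word in 7 (10.3%) and 3.996%, the YY1 word in 6 (8.82%) and 4.08%, and the E-box in 5 (7.35%) and 6.65%. Any of the words occurred in 28 of the 68 (41.2%), against 21.4% of all. The NRF1 word was found in 4 of 12 promoters of genes that rose, in 0 of 4 of those that fell and in 3 of 52 of those not called, and the ETS word in 3 of 12, 1 of 4 and 12 of 52. A match of letters is not a bound site, and these shares were not tested.

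Other genes of mitochondrial translation moved in both directions. For the counts of every list below, the shares over all kept genes were 16% higher and 16.6% lower. Without oe-NC sample 1 they were 19.4% and 20.7%. Of 28 genes for mitoribosome assembly, 5 rose (17.9%) and 1 fell (3.57%), with a median log2 fold change of 0.08 over the list. Without oe-NC sample 1, 7 rose (25%) and 1 fell. Mrm2, a methyltransferase of the 16S rRNA, was at 11.7, 10.8 and 11.3 CPM in oe-AQP1 and 8.10, 8.37 and 9.34 CPM in oe-NC (0.39 ± 0.09, adjusted p by limma-voom 0.00879). Rpusd4, a pseudouridine synthase of the same rRNA, was at 34.8, 34.7 and 32.3 CPM against 26.7, 25.6 and 27.0 CPM (0.36 ± 0.06, adjusted p 0.00106). Of 14 translation factors, 1 rose (Mtif3, an initiation factor, 0.24) and 2 fell (Gfm1, an elongation factor, -0.24, and Tufm, the mitochondrial elongation factor Tu, -0.22), and without oe-NC sample 1, 2 rose and 3 fell. Of 5 mitoribosomal proteins with names outside the Mrpl and Mrps scheme, Aurkaip1, which encodes mS38, fell (-0.23 ± 0.04, adjusted p 0.00242), and it was again the one called without oe-NC sample 1 (-0.22).

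Of 20 mitochondrial aminoacyl-tRNA synthetase genes, 1 rose (5%) and 5 fell (25%). Lars2, which charges leucine tRNA, was at 174, 191 and 195 CPM in oe-AQP1 against 120, 117 and 139 CPM in oe-NC (0.58 ± 0.07, adjusted p by limma-voom 0.000116). Cars2, which charges cysteine tRNA, was at 66.4, 69.2 and 65.9 CPM against 93.4, 85.1 and 88.6 CPM (-0.41 ± 0.05, adjusted p 0.000144). Without oe-NC sample 1, 4 rose and 5 fell. Of 20 genes for mitochondrial protein import, which brings the ribosomal proteins in, 2 rose (10%) and 3 fell (15%). Timm21 (-0.37) and Timm17b (-0.24) of the inner membrane translocase were among those that fell. Without oe-NC sample 1, 3 rose (15%) and 9 fell (45%). Of 11 regulators of mitochondrial biogenesis, 5 rose (45.5%) and 1 fell (9.09%), with a median of 0.15. Without oe-NC sample 1, 5 rose (45.5%) and 2 fell (18.2%). Ppargc1a, the coactivator PGC-1α, was at 21.9, 21.9 and 24.1 CPM against 14.9, 16.9 and 15.95 CPM (0.51 ± 0.07, adjusted p 0.000548), and Gabpb1, a subunit of the ETS factor GABP, at 38.4, 36.1 and 34.9 CPM against 23.8, 28.5 and 26.8 CPM (0.47 ± 0.07, adjusted p 0.000809). Gabpb2, which encodes another GABP subunit, fell (-0.21). Nrf1 itself (-0.15, adjusted p by limma-voom 0.119) and the GABP subunit gene Gabpa (-0.09, adjusted p 0.169) were not called. Without oe-NC sample 1 Gabpa was called lower (-0.13, adjusted p 0.00687) and Nrf1 was again not called (-0.08, adjusted p 0.209).

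**Figure D5:**
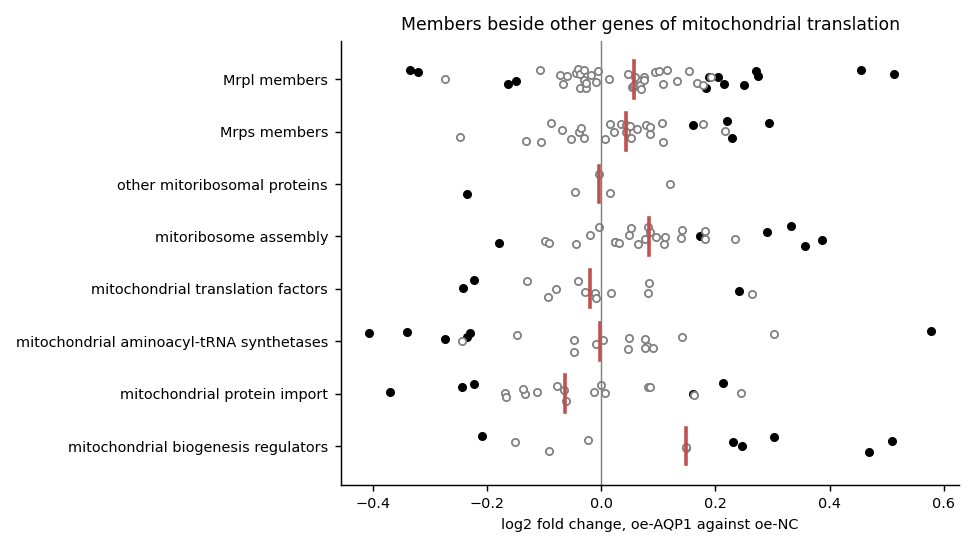
Each point is 1 gene with its log2 fold change (oe-AQP1 against oe-NC, horizontal axis), for the Mrpl and Mrps genes and 6 other lists of genes for mitochondrial translation and biogenesis (rows); filled points had adjusted p under 0.05 and red bars are medians. The Mrpl and Mrps medians are 0.06 and 0.04, and that of the biogenesis regulators is 0.15.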

How the data were processed

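Total RNA was made into TruSeq libraries and read from both ends; the authors deposited an expected count per gene and sample, not scaled between samples. The submitters' processing notes name fastp, HISAT2, featureCounts, Subread and the build GRCm38 (mm10), with no role or order, whereas the study's methods give GRCm39. The table also holds the authors' mean expected count of each group, which was not used. Here the expected counts were rounded, and genes were filtered with filterByExpr by group (15522 kept) and scaled by TMM in edgeR 4.0.16. They were tested with limma-voom (limma 3.58.1, R 4.3.3) with the group as the sole term, and a gene was called at an adjusted p under 0.05. At 18385714.02 to 21920898.67 expected counts per sample, 1 CPM is about 20 counts.

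Positions and transcript lengths came from GENCODE M39, to which 78168 genes matched by identifier, and promoters from RefSeq (GRCm38.p6). TPM was computed here from expected counts, without TMM. The fits were tested on simulated data. The rule for the members used names only, but the rule, lists and tests were set with earlier results of these data known. Genes named were the called members (up to 8 in each direction), the 5 highest and lowest by TPM in oe-NC, the Mrps18 paralogs, genes whose name and subunit differ, Aqp1, and the 2 largest called changes of each list; others, such as mt-Rnr1, mt-Rnr2 and the neighbours, were chosen after their values were seen. Samples were not paired by number in the main fit. The alternatives, run over all genes, were 2 other tests (edgeR quasi-likelihood, DESeq2 1.42.0), sample quality weights, 3 other scalings, 2 other filters, unrounded counts, protein-coding genes only, a replicate block and leaving out each sample. Protein sequences were not analysed here.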

Additional observations from a re-analysis of the deposited data

How the results depend on the processing

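Under the 17 alternative fits, 10 of the 17 called genes (8 higher, 2 lower) kept their call in every fit, none of the 17 changed sign, and 46 of the 77 genes were called in none. The median log2 fold changes of both subunits moved by less than the spread between replicates (pooled SD of the sample medians 0.078 for the large and 0.052 for the small subunit). That spread is larger than the medians themselves, 0.057 and 0.044, so it cannot show that they are stable. Without oe-NC sample 1 the medians were 0.009 and 0.029. With sample quality weights 9 members were called lower and 7 of the small subunit were called; without a low-count filter 2 of the small subunit were called, among 34240 genes tested. At an adjusted p under 0.01 the counts were 2 lower, 8 higher and 1 of the small subunit. The share of all kept genes at that threshold is not given here, so these counts cannot be set against a background. Leaving out 1 sample gave 2 to 12 called lower and 2 to 10 of the small subunit called, the highest of both without oe-NC sample 1. In these fits 11% to 20.7% of all kept genes were called lower and 11.7% to 19.4% higher, both shares also highest without oe-NC sample 1. Without that sample 10 of the 77 genes, none of them called and all within 0.0754 of 0 with all samples, changed sign. Among the named genes these were Mrpl54, at -0.0043 without it, and Mrpl20, which ranged from -0.041 without it to 0.157 without oe-NC sample 3. A replicate block gave 14 higher and 2 lower (15.1% and 16% of all kept genes), with Mrpl11 and Mrpl28 not called. Deviations of same-numbered samples correlated at -0.00011, 0.015 and -0.053, and not every sample correlated best with its own number. With 3 samples per group these values cannot show whether same-numbered samples had a shared origin. Leaving out a sample leaves fewer samples by construction, and beyond that the cause of these changes was not tested. Depth sets a limit at the low end: Mrpl22, among the called genes with the fewest counts, had 298 to 511 counts per sample.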
